A study of Bos indicus with 8 samples.

Results

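The genes described here are 52 mitosis and spindle genes, taken as a fixed list of gene symbols that covers the switch into mitosis, the mitotic kinases, the spindle checkpoint, sister separation, the kinetochore, the spindle motors, cytokinesis and chromosome condensation. Each gene was read through the probe that carries its symbol in the platform annotation, and where several did, through the probe with the brightest mean signal over all arrays and both channels. Of the 52 genes, 50 had a probe, while TTK and CENPA had none under these symbols and were not analysed here. INCENP, a scaffold of the chromosomal passenger complex, had a probe too dim to test, so 49 genes were tested among 32229 probes.

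The genes were measured in cumulus cells, which enclose the oocyte in the ovarian follicle, labelled as Bos indicus. The 4 FSH pools came from complexes of cumulus cells and oocyte cultured for 6 h with 0.5 µg/ml recombinant human follicle-stimulating hormone (FSH), and the 4 control pools from complexes cultured without it. Both arms also received 3 mM adenosine, 1 µg/ml estradiol, 0.2 mM pyruvic acid and 10% fetal bovine serum, so the comparison asks what FSH does on top of adenosine, estradiol and serum. Complexes were taken from slaughterhouse follicles of 3 to 6 mm, each pool is labelled with the number 10 without a unit, and the RNA was amplified in a linear reaction before labelling. The labels call the 4 replicates biological without saying whether animals were shared, so the spread given here is that between these pools.

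Each FSH pool was hybridised with the control pool of the same number on 2 arrays of opposite dye orientation. All arrays with FSH in Cy5 lay on 1 slide and all arrays with FSH in Cy3 on the other, so slide and dye cannot be told apart; they are called the Cy5 slide and the Cy3 slide after the dye of the FSH pool. Values below are log2 ratios of FSH over control, with a negative value where the FSH pool was the dimmer one, averaged over both orientations to 1 value per replicate. Across the arrays, 42.5% to 78.8% of probes passed the limit set by negative controls in Cy3 and 33.9% to 86.4% in Cy5. In replicate 3 the control channel passed less on both slides, with 46.3% (Cy3) and 33.9% (Cy5), against 80.3% and 68.8% for FSH. The limit in these control channels was the highest of its dye (192.1 and 82.2), as was the median signal (184.3 and 59.0). In replicate 1 the FSH channel passed in 42.5% on the Cy3 slide and 86.4% on the Cy5 slide. Of the 49 genes, 44 passed it on all 8 arrays in both channels, and NEK2, PLK1, ANLN, ZWINT and TPX2 did so on 5 to 8 arrays in each channel. Pools 3 and 4 stood apart from pools 1 and 2, and control pool 4 stood apart within its pair, since FSH pool 4 correlated in its deviations across probes with control pool 3 (r = 0.724) more than with control pool 4 (r = 0.212). Values without replicate 4, and without replicates 3 and 4, are therefore given beside the cell type markers. In these pools fewer dividing cells and less RNA per cell cannot be told apart.

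A cell enters mitosis when cyclin B bound to the kinase CDK1 becomes active, and it leaves mitosis when the anaphase-promoting complex, with its activator CDC20, marks cyclin B and securin for destruction. Between these steps motors and microtubule-binding proteins build the spindle, kinetochores attach chromosomes to it, and the checkpoint proteins hold back CDC20 until every chromosome is attached. Most of these transcripts accumulate in G2 and mitosis, so in a growing tissue they are read together as a record of cells that divide. Granulosa and cumulus cells proliferate during follicle growth and stop as they differentiate around ovulation, while the oocyte stores many of the same transcripts for meiosis.

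No gene of the 49 passed limma's test at an adjusted p of 0.05, and neither did any of the 32229 probes (0% called). The lowest adjusted p among the 49 was 0.274, for CDC20, against 0.18 over all probes. Their ratios still leaned to one side, as the plot of all genes by role shows. The mean ratio was below 0 for 42 of 49 genes (85.7%), against 48% of all tested probes, and their median was -0.23 against 0.01 over all probes. Of the 49, 21 were below 0 in all 4 replicates, where 8.22% of all probes were. RACGAP1 was above 0 in all 4, where 11.4% of all probes were. At an unadjusted p under 0.05, 19 of 49 lay below 0 and 1 above, against 4.75% and 5.96% of all probes. Over all 12328 tested genes, read through their brightest probe, 49.4% had a mean below 0 and 9.07% were below 0 in all 4 replicates. At an unadjusted limma p under 0.05, 744 of the 12328 lay below 0 and 818 above. The means ran from -0.66 for PRC1 to 0.23 for RACGAP1, so no gene of the list was below 0.635-fold or above 1.17-fold of control on average. The lean depended on the normalization along brightness. When the scanner ratios were centred on each array's median without loess, the median of the 49 genes was -0.02 with 26 below 0 and none of the 49 below 0 in all replicates. In that setting the 6649 tested probes at or above the median signal of the 49 genes had a median of 0.26 and the 25580 dimmer ones 0.02. The 49 genes thus lay below the brighter probes in that setting and near the dimmer ones. In the deposited ratios these medians were 0.00 and 0.01.

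**Figure D1:**
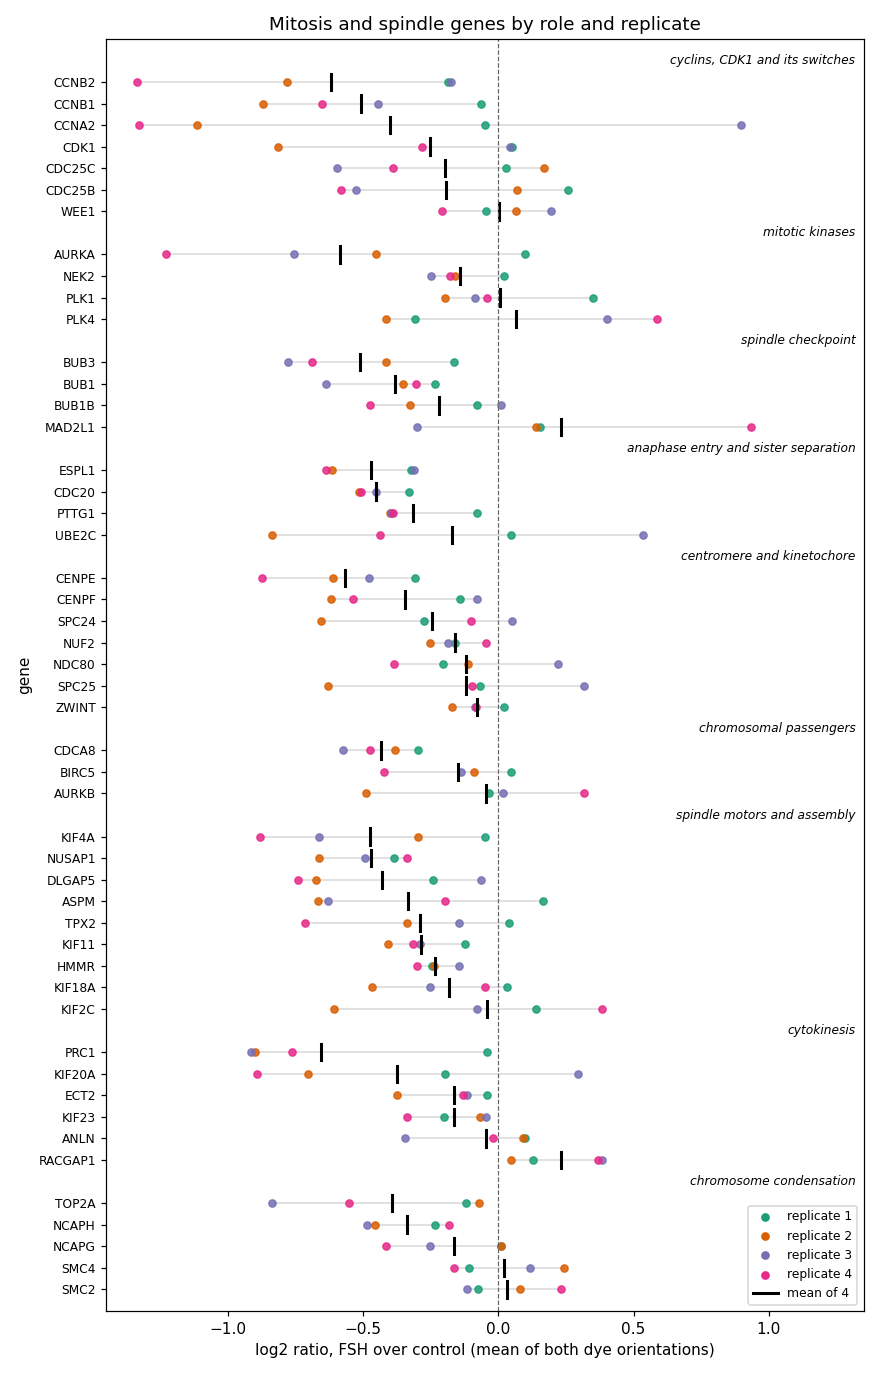
Log2 ratio of FSH over control (x axis) for the 49 tested mitosis and spindle genes (y axis), grouped by role, with a point for each of 4 replicates and a black bar at their mean. The bars of 42 genes lie left of 0, and the points of CCNA2, UBE2C and KIF20A spread to both sides.

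**Figure D2:**
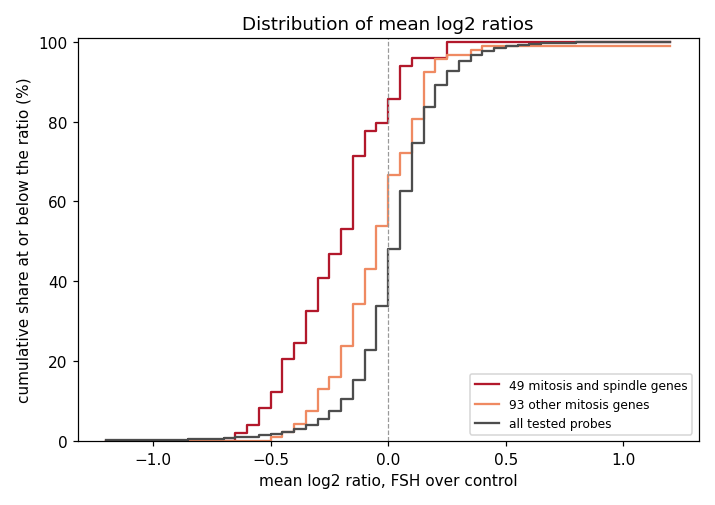
Cumulative share of genes or probes (y axis, percent) at or below a mean log2 ratio of FSH over control (x axis) for the 49 genes, 93 other mitosis genes and all 32229 tested probes. At a ratio of -0.3 the curve stands at 40.8% for the 49 genes, 12.9% for the other mitosis genes and 5.47% for all probes.

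The B-type cyclins, which activate CDK1 for entry into mitosis, were below 0 in every replicate. CCNB1 had log2 ratios of -0.06, -0.87, -0.44 and -0.65 in replicates 1 to 4, a mean of -0.51 ± 0.34 (SD, n = 4) and an adjusted p of 0.343. CCNB2 had -0.19, -0.78, -0.17 and -1.34, a mean of -0.62 ± 0.56 and an adjusted p of 0.396. For both genes replicates 2 and 4 held the ratios farthest from 0. CDK1 itself had 0.05, -0.81, 0.04 and -0.28, so that replicate 2 set its mean of -0.25 ± 0.41. CCNA2, the cyclin of S phase and early mitosis, stood at -0.05, -1.11, 0.90 and -1.33 with a mean of -0.40 ± 1.03, and replicate 3 pointed against replicates 2 and 4. Its signal in control pool 3 was 7.99 on the log2 scale, against 9.06 to 9.35 in the other control pools.

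The phosphatases that switch CDK1 on split by replicate. CDC25B had ratios of 0.26, 0.07, -0.53 and -0.58, and CDC25C had 0.03, 0.17, -0.60 and -0.39, so both were above 0 in replicates 1 and 2 and below it in replicates 3 and 4. WEE1, the kinase that holds CDK1 inactive, had a mean of 0.0007 ± 0.17. In this role group 6 of 7 genes had a mean below 0 and 2 were below 0 in all replicates, against 48% and 8.22% of all probes.

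Among the mitotic kinases AURKA, which matures centrosomes and helps build the spindle, had ratios of 0.10, -0.45, -0.76 and -1.23 and a mean of -0.58 ± 0.56 (adjusted p = 0.414). Its log2 signal was 9.04, 8.53, 8.07 and 7.80 in FSH pools 1 to 4 and 8.89, 8.95, 8.86 and 8.89 in control pools 1 to 4. The control pools lay within a narrow band while the FSH pools spread below and, in pool 1, above it. PLK4, which starts centriole duplication, had -0.31, -0.41, 0.40 and 0.59. PLK1, the polo-like kinase of mitotic entry and exit, and NEK2, a centrosome kinase, were too dim to say more than means of 0.01 ± 0.24 and -0.14 ± 0.11. For PLK1 the orientations opposed each other, with -0.34 on the Cy5 slide and 0.35 on the Cy3 slide.

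The checkpoint genes had the pattern of the list in 3 of 4 cases. BUB3, which carries BUB1 and BUBR1 to kinetochores, had ratios of -0.16, -0.41, -0.78 and -0.69, a mean of -0.51 ± 0.28 and an adjusted p of 0.332. Its log2 signal was 12.91, 12.69, 13.04 and 12.72 in FSH pools, against 13.15, 13.20, 13.61 and 13.37 in control pools, and the groups did not overlap. BUB1, the kinase at the base of the checkpoint, had -0.24, -0.35, -0.64 and -0.31, a mean of -0.38 ± 0.18 and the same adjusted p of 0.332. BUB1B, which encodes BUBR1, had a mean of -0.22 ± 0.22 and was at 0.01 in replicate 3. MAD2L1, the checkpoint protein that binds CDC20, had 0.16, 0.14, -0.30 and 0.93 and a mean of 0.23 ± 0.51, and replicate 4 alone placed that mean above 0, since without it the mean was -0.0024.

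Genes of anaphase entry had the lowest median of the 9 role groups, -0.38 over 4 genes. CDC20, the activator of the anaphase-promoting complex, had ratios of -0.33, -0.52, -0.45 and -0.51, a mean of -0.45 ± 0.09 and an adjusted p of 0.274. Its log2 signal was 7.95, 7.75, 7.81 and 7.83 in FSH pools and 8.18, 8.02, 8.21 and 8.22 in control pools. No FSH pool reached a control pool, and the ratio varied little between replicates. ESPL1, the separase that cuts cohesin, had -0.32, -0.62, -0.31 and -0.64, a mean of -0.47 ± 0.18 and an adjusted p of 0.292. PTTG1, the securin that restrains separase, had -0.08, -0.40, -0.40 and -0.39 and a mean of -0.32 ± 0.16 (adjusted p = 0.364). UBE2C, the ubiquitin-conjugating enzyme of the same complex, stood at 0.05, -0.84, 0.53 and -0.44, with replicates on both sides of 0.

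All 7 kinetochore genes tested had a mean below 0, with a median of -0.16, against 48% of all probes with a mean below 0. With median centring and no loess, CENPE and CENPF stayed below 0, and NDC80, NUF2, SPC24, SPC25 and ZWINT were above it. CENPE, the motor that carries chromosomes to the spindle equator, had ratios of -0.31, -0.61, -0.48 and -0.88, a mean of -0.57 ± 0.24 and an adjusted p of 0.284. Its log2 signal was 8.64, 8.57, 8.73 and 8.26 in FSH pools, against 8.94, 9.05, 9.21 and 9.09 in control pools, again with no overlap. CENPF, a large kinetochore protein that peaks in G2 and mitosis, had a mean of -0.34 ± 0.27 and was below 0 in each replicate. The 4 subunits of the NDC80 complex, which holds microtubule ends, had means of -0.25 ± 0.31 for SPC24, -0.16 ± 0.09 for NUF2, -0.12 ± 0.25 for NDC80 and -0.12 ± 0.39 for SPC25. Of these NUF2 alone was below 0 in all replicates. ZWINT, which links the ZW10 complex to kinetochores, had a mean of -0.08 ± 0.08, made of 0.09 on the Cy5 slide and -0.25 on the Cy3 slide.

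The 3 chromosomal passengers tested did not share a pattern. CDCA8, which encodes borealin, had ratios of -0.30, -0.38, -0.58 and -0.47, a mean of -0.43 ± 0.12 and an adjusted p of 0.284. BIRC5, which encodes survivin, had a mean of -0.15 ± 0.20. AURKB, the kinase of the complex, stood at -0.04, -0.49, 0.02 and 0.32, with a mean of -0.05 ± 0.33.

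Spindle motors and assembly factors formed the biggest role group, and all 9 genes tested had a mean below 0, 5 of them in every replicate. Over all probes, 48% had a mean below 0 and 8.22% were below 0 in every replicate. With median centring and no loess, KIF18A and KIF2C were above 0 and the others stayed below it. NUSAP1, which bundles spindle microtubules, had ratios of -0.39, -0.67, -0.49 and -0.34, a mean of -0.47 ± 0.14 and an adjusted p of 0.282. Its log2 signal was 10.99, 10.57, 11.19 and 11.08 in FSH pools, against 11.30, 11.32, 11.73 and 11.52 in control pools, without overlap. KIF4A, a chromosome-bound motor, had -0.05, -0.30, -0.67 and -0.88 with a mean of -0.47 ± 0.37, and DLGAP5, a microtubule-stabilising factor, had a mean of -0.43 ± 0.33. KIF11, the motor that pushes spindle poles apart, was less spread, with -0.12, -0.41, -0.29 and -0.31 and a mean of -0.28 ± 0.12 (adjusted p = 0.372). HMMR, a microtubule-binding spindle protein, had the least spread of the 49, with -0.25, -0.24, -0.14 and -0.30 and a mean of -0.23 ± 0.07. That mean came from -0.01 on the Cy5 slide and -0.46 on the Cy3 slide, so it rests on the Cy3 slide. ASPM, a spindle pole protein, had a mean of -0.33 ± 0.39, TPX2, which activates AURKA, -0.29 ± 0.32, KIF18A, which trims microtubule ends at kinetochores, -0.18 ± 0.22, and KIF2C, a microtubule-depolymerising kinesin, -0.04 ± 0.42. Each of these 4 had at least 1 replicate above 0.

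Cytokinesis held both ends of the list. PRC1, which bundles the midzone microtubules, had ratios of -0.04, -0.90, -0.92 and -0.76, the lowest mean of the list at -0.66 ± 0.41, and an adjusted p of 0.332. Its log2 signal was 11.72, 11.15, 11.86 and 11.48 in FSH pools and 11.93, 12.07, 12.54 and 12.17 in control pools, so every FSH pool lay below every control pool although replicate 1 showed little difference in the deposited ratio. KIF20A, a motor of the midzone, had -0.20, -0.70, 0.29 and -0.89, with replicate 3 again opposed. KIF23 (-0.16 ± 0.14), which pairs with RACGAP1 in the centralspindlin complex, and ECT2 (-0.17 ± 0.15), the exchange factor that this complex recruits, were both below 0 in all replicates. RACGAP1 itself had 0.13, 0.05, 0.38 and 0.37, a mean of 0.23 ± 0.17 and an adjusted p of 0.455. Its mean was -0.09 on the Cy5 slide and 0.55 on the Cy3 slide, so its place above 0 rests on the Cy3 slide. ANLN, a scaffold of the contractile ring, was dim, passed the limit on 5 of 8 arrays in each channel and had a mean of -0.04 ± 0.21.

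The condensation genes split. TOP2A, the topoisomerase that untangles sister chromatids, had ratios of -0.12, -0.07, -0.84 and -0.55, a mean of -0.40 ± 0.37 and an adjusted p of 0.424. NCAPH, a subunit of condensin I, had -0.23, -0.46, -0.49 and -0.18 and a mean of -0.34 ± 0.15 (adjusted p = 0.335). NCAPG, its partner in condensin I, had a mean of -0.16 ± 0.21. The ATPase subunits that both condensins share, SMC2 and SMC4, had means of 0.03 ± 0.16 and 0.02 ± 0.19, and each changed sign between the slides.

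Signals of single pools gave 9 genes whose 4 FSH pools all lay below their 4 control pools, where 1.72% of all probes did, and 0 genes with the order turned round. Over all 12328 tested genes, read through their brightest probe, 255 had all FSH pools below and 248 had them above. The 9 genes were BUB1B, BUB3, CDC20, CENPE, NUSAP1, HMMR, KIF23, PRC1 and NCAPH. For CENPE the highest FSH pool was at 8.73 and the lowest control pool at 8.94. For HMMR they were at 7.17 and 7.18, and for KIF23 at 7.98 and 7.99. For BUB1B, FSH pool 1 and control pool 1 were both at 9.35 to 2 decimals.

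**Figure D3:**
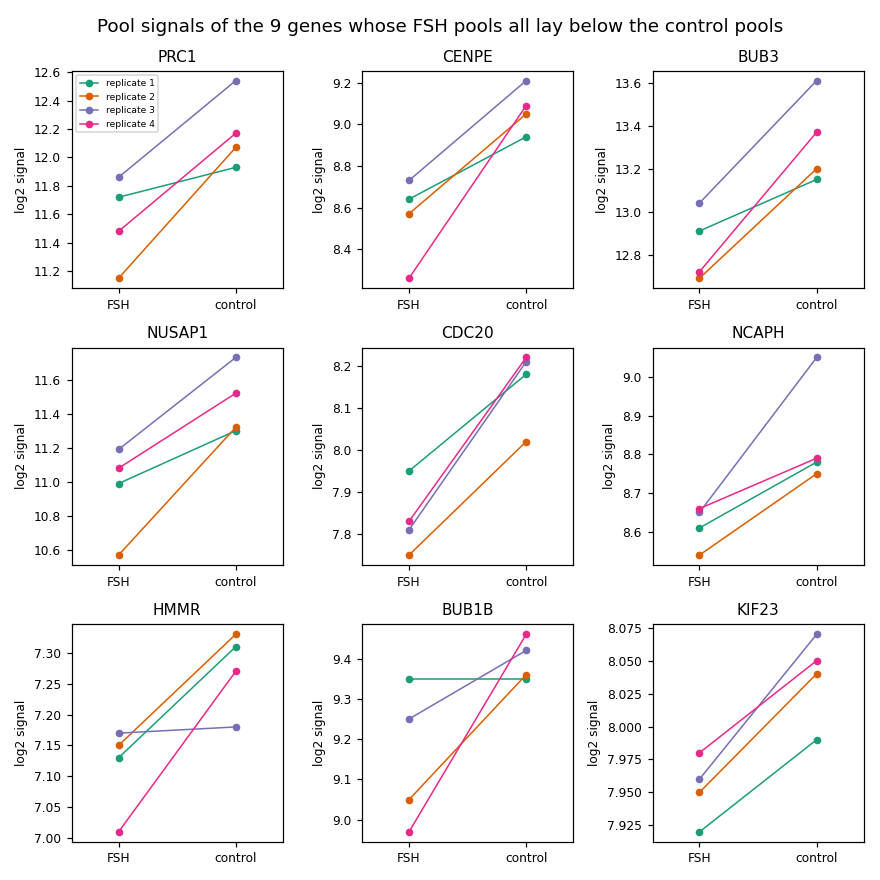
Log2 signal (y axis, a scale of its own per gene) of the 9 genes in the FSH pool and the control pool of each replicate (x axis, lines join the pools of a replicate). All FSH points lie below all control points in each panel, and for BUB1B and HMMR 1 replicate is nearly level.

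Replicates differed in how far the genes stood from 0. Of the 32229 tested probes, 15395, 14659, 15805 and 15223 were below 0 in replicates 1 to 4. The median ratio of the 49 genes was -0.07, -0.40, -0.17 and -0.34 in replicates 1 to 4, with 32, 40, 36 and 43 genes below 0. Both slides gave this order, with medians of -0.07, -0.39, -0.24 and -0.32 on the Cy5 slide and of -0.05, -0.44, -0.16 and -0.35 on the Cy3 slide. Replicate 1 was nearest to 0 on each slide, and across the 49 genes its 2 arrays correlated least (r = 0.224, with 0.626, 0.80 and 0.831 for replicates 2 to 4). Genes did not keep their order between replicates. The highest correlation across the 49 genes was 0.443, between replicates 2 and 4, and the lowest -0.12, between replicates 2 and 3. These correlations are descriptions over genes that share arrays and pools.

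By slide, the median over the 49 genes was -0.25 on the Cy5 slide and -0.25 on the Cy3 slide. Of the 49, 39 had a mean below 0 on both slides, 2 (PLK4 and MAD2L1) a mean above 0 on both, and 8 (WEE1, PLK1, ZWINT, KIF2C, ANLN, RACGAP1, SMC2 and SMC4) changed sign between the slides. The share of all probes below 0 on both slides was not counted. The slide means correlated across the 49 genes with r = 0.59 and rho = 0.696, against r = 0.323 across all tested probes. On all 8 arrays 11 genes were below 0, namely BUB1, BUB3, CDC20, ESPL1, CENPE, CDCA8, KIF11, KIF4A, NUSAP1, DLGAP5 and TOP2A, against 2.30% of all probes, and 0 genes were above 0 on all 8.

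**Figure D4:**
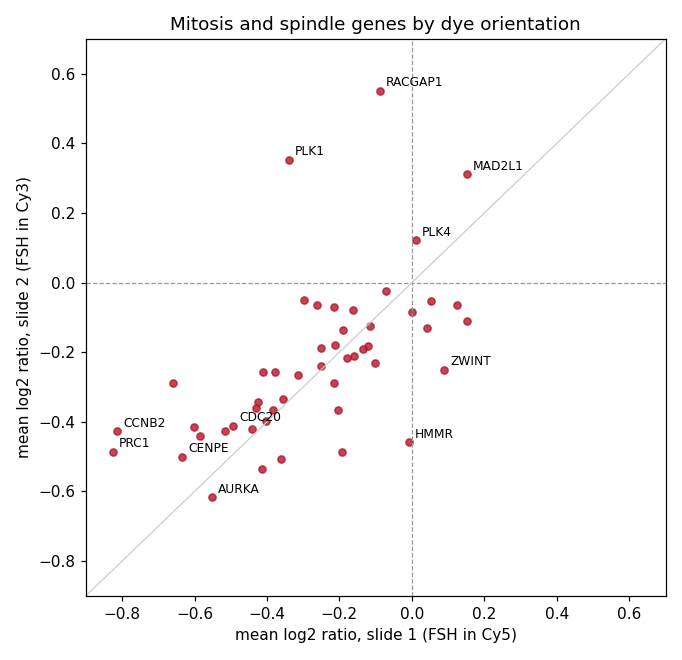
Mean log2 ratio of FSH over control of the 49 genes on the Cy5 slide (x axis) and the Cy3 slide (y axis), with a grey line where both are equal. Of the points, 39 lie below 0 on both axes, and RACGAP1, PLK1 and HMMR stand far from the line.

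The arrays of a replicate carry the same 2 RNA pools. When they were entered singly with the replicate as a block, 7 of the 49 genes had an adjusted p under 0.05 in limma, all below 0, against 1.03% of all probes called below 0. They were CCNB1, BUB3, CDC20, CENPE, CDCA8, NUSAP1 and PRC1, with adjusted p from 0.015 for CENPE to 0.047 for CCNB1. With a term for dye orientation beside the replicate block 6 passed, again all below 0, against 0.763% of all probes. CDC20, CENPE, CDCA8, NUSAP1 and PRC1 passed in both, and ESPL1 passed with the dye term only (adjusted p = 0.0435). This fit counts 8 arrays where the fit above counts 4 pairs of pools.

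Cell type markers were set beside the genes because the oocyte lies inside the complex and holds many mitosis transcripts. Of 20 cumulus and granulosa markers 19 were above the limit, FSHR, the FSH receptor, and INHBA, an inhibin and activin subunit, among them. Of 28 oocyte markers 26 were tested, and their median signal was 6.55 to 6.63 on the log2 scale in FSH pools, against 6.60, 6.60, 7.25 and 6.75 in control pools 1 to 4. Their median ratio was -0.01, 0.01, -0.34 and -0.21 in replicates 1 to 4. A mean below 0 was found for 20 of 26 (76.9%), against 48% of all probes. BTG4, an oocyte transcript regulator, showed the same on a larger scale, with a log2 signal of 6.51 to 6.79 in FSH pools and of 6.66, 6.60, 9.35 and 8.01 in control pools. The median of the oocyte markers was thus highest in control pools 3 and 4, but not every marker rose there. Over 0.5 above both control pools 1 and 2 on the log2 scale were 9 of 26 in control pool 3 and 5 in control pool 4. The share of all probes past this margin was not counted. UCHL1 was lower in control pool 3, with 12.19, 12.04, 10.63 and 11.86 in control pools 1 to 4. In replicates 1 and 2 alone the median ratio of the 49 mitosis genes was -0.24, with 39 below 0. The oocyte markers had medians of -0.01 and 0.01 there, with 13 and 12 of 26 below 0. Their median log2 signal in these pools was 6.55 to 6.60, near the 6.33 to 6.41 of INCENP, which was too dim to test. RNF114, the brightest oocyte marker, had ratios of -0.45 and -0.50 there. The part of oocyte RNA was not tested in any replicate.

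The median ratio of the cumulus markers was -0.02, -0.0023, -0.13 and -0.53 in replicates 1 to 4. Of the 19, 16 had a mean below 0 (84.2%), a share close to the 85.7% of the mitosis genes, against 48% of all probes. In all 4 replicates 3 of the 19 were below 0, where 8.22% of all probes were. The median over the 19 was -0.14. The part of this lean of the cumulus markers in the result was not tested. Their median log2 signal was 8.68, 8.76, 7.73 and 7.85 in FSH pools, against 8.68, 8.72, 7.94 and 8.36 in control pools. FSH pools 3 and 4 and control pool 3 were low, and control pool 4 stood between them and the rest. Without replicate 4 the median of the 49 genes was -0.20, with 45 below 0. Markers of immune cells (8 of 12 tested), red blood cells (3 of 8) and theca, stroma and endothelium (13 of 15) had median ratios of 0.04, 0.05 and -0.05.

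**Figure D5:**
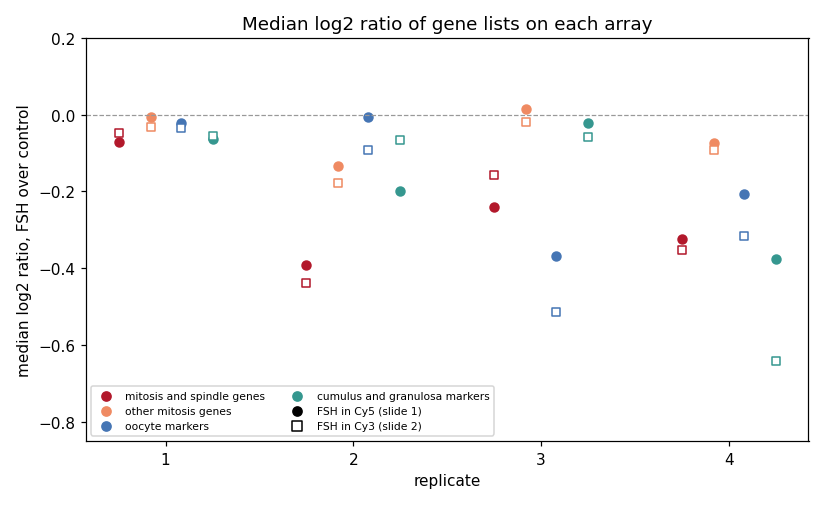
Median log2 ratio of FSH over control (y axis) of the 49 mitosis and spindle genes, 93 other mitosis genes, oocyte markers and cumulus markers on each of the 8 arrays, by replicate (x axis), with filled circles for FSH in Cy5 and open squares for FSH in Cy3. The mitosis and spindle genes lie below 0 on every array, and the oocyte markers lie at -0.37 and -0.51 in replicate 3 and at -0.21 and -0.32 in replicate 4.

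Pool 3 of each arm and FSH pool 4 also held genes apart from pools 1 and 2 of their arm. The share of all probes past the margin of 0.5 used here was not counted. Whether these genes stood out from a difference between pools over all probes was therefore not tested. In FSH pool 3, 6 of the 49 genes were over 0.5 above both FSH pools 1 and 2 on the log2 scale (PLK4, SPC25, AURKB, KIF2C, KIF18A and ASPM), and in control pool 3, 10 genes were so placed (CCNB1, PLK4, BUB1, MAD2L1, AURKB, CDCA8, KIF11, KIF2C, KIF18A and ASPM). Below both pools 1 and 2 by that margin were 3 genes in FSH pool 3 (CDC25B, KIF4A and RACGAP1) and 2 in control pool 3 (CCNA2 and RACGAP1). FSH pool 4 had 4 genes above (PLK4, MAD2L1, AURKB and KIF2C) and 6 below (CCNB2, CCNA2, CDC25B, AURKA, KIF4A and RACGAP1), and control pool 4 had 1 above (KIF2C) and 0 below. KIF2C, for example, had a log2 signal of 9.62, 9.15, 11.04 and 10.67 in FSH pools and of 9.52, 9.73, 11.17 and 10.29 in control pools. These differences between pools were larger than that between the arms, which for KIF2C was -0.04. RACGAP1 ran the other way, with 8.73, 8.81, 8.03 and 8.11 in FSH pools and 8.58, 8.78, 7.79 and 8.13 in control pools. By the same margin 9 of 26 oocyte markers stood out in control pool 3, 5 in control pool 4, 0 in FSH pool 3 and 1 in FSH pool 4.

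A wider list of 117 other mitosis genes, such as further centromere, cohesin, anaphase-promoting complex and centrosome genes, gave 93 that were tested. Their median ratio was -0.06, with 62 of 93 below 0 (66.7%, against 48% of all probes) and 31 above. As over all probes, 0 passed the adjusted test. In all 4 replicates 18 were below 0 and 7 above, against 8.22% and 11.4% of all probes. At an unadjusted p under 0.05 there were 12 below and 3 above, against 4.75% and 5.96% of all probes. The lean of the 49 genes was thus present in this list as a smaller median, and the difference between the lists was not tested. With median centring in place of loess the median of the wider list was 0.03. PLK2, a polo-like kinase of centriole duplication that is also an early stress-response gene, had the highest mean of all tested probes, with ratios of 2.81, 0.79, 3.27 and 2.05 and a mean of 2.23 ± 1.08 (adjusted p = 0.274). It had an adjusted p of 0.00183 with the replicate block. TACC3, a spindle protein that works with AURKA, had a mean of -0.36 ± 0.12 and CENPT, which joins the centromere to the outer kinetochore, -0.32 ± 0.12. KIF20B, a motor of late cytokinesis, had -0.27 ± 0.05, and LIN52, a subunit of the DREAM complex that represses and activates cell cycle genes, had 0.37 ± 0.19. FOXM1, the transcription factor of many G2 and mitosis genes, was too dim to test.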

How the data were processed

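Per the labels, 8 two-channel arrays held 4 FSH and 4 control pools of cumulus cells. The deposited scanner files give spot intensity and local background on a linear scale. The deposited series matrix gives the authors' normalized log2 ratio of FSH over control; the authors' background correction and normalization are not given in the sources used here, nor is a genome build. Direction and log2 scale were settled against the scanner values (r from 0.64 to 0.829 across probes). The deposited columns had medians of 0.00818, 0.00923, -0.00381 and 0.00113 for replicates 1 to 4 with FSH in Cy5, and 0.00892, 0.0146, 0.0109 and 0.0178 with FSH in Cy3.

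Unless an alternative, a slide or an array is named, ratios came from the series matrix, with the 2 arrays of a replicate averaged. The ratios with scanner loess, with median centring and without background subtraction came from the scanner files. The fits with a replicate block entered the arrays singly. Pool signals came from the scanner intensity after normexp (offset 50), loess and quantile normalization of average intensities, each pool averaged over both dyes. A probe was kept where, in the FSH or the control channel, its signal averaged over the arrays of a replicate exceeded a limit (mean plus 2 SD over 153 negative control spots) in at least 3 of 4 replicates, which left 32229 probes. FSH was compared with control in R 4.3.3 with limma 3.58.1 (intercept, eBayes) over all kept probes, with Benjamini-Hochberg adjustment at 0.05; statmod 1.5.0 gave the block correlation. The fit was tested on simulated data. The number of pairs of pools, 4, limits the precision.

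Symbols are those of an old platform annotation; 49 of the 50 symbols with a probe were found in the RefSeq table of NIAB-ARS_B.indTharparkar_mat_pri_1.0. Of the 49 tested genes, 10 had several tested probes, and for 5 (CCNA2, CDC25B, NCAPH, NUSAP1 and SMC2) a dimmer probe had the opposite sign. The genes, the wider list, the markers and the tests were chosen with earlier results of these data known. The genes to name were 18 fixed by name, with TTK, which had no probe, among them. To these came the 10 with the lowest p and the 10 with the largest mean difference in either direction. The remaining genes, and those given by replicate, were chosen after their values were seen. Of the wider list, the 5 with the lowest p were named.

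Same-numbered FSH and control pools correlated in their deviations from the group means with r = 0.705, 0.713, 0.609 and 0.212, and shared arrays add to this; for FSH pool 4 the closest control pool was number 3 (r = 0.724). The pools were taken as paired by the shared arrays. Alternatives were other background and normalization settings, dimness limits, single slides, replicate blocks and left-out replicates.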

Additional observations from a re-analysis of the deposited data

Results flagged for a closer look

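Of the 49 genes, 1 had a replicate far from the others. PTTG1, the securin, had a log2 ratio of -0.0785 in replicate 1, against -0.40, -0.40 and -0.39 in replicates 2 to 4. The gap to the nearest replicate, divided by the range of the 4 values, exceeded Dixon's limit. Chance passes about 1 in 20 such groups, and 49 were looked at.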

How the results depend on the processing

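The spread rests on 4 pairs of pools, and slide and dye cannot be told apart. For 54 named genes 913 values were computed under the alternatives. The sign turned in 54 of them, 15 turned to called, all with a replicate block, and the other 844 kept the sign and stayed above an adjusted p of 0.05. The median of the 49 genes stayed below 0 in each alternative. It was -0.20 with scanner loess, -0.24 without background subtraction, and -0.27 to -0.20 with each replicate left out.

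With median centring and no loess the median was -0.0151, with 26 genes below 0 and 0 below 0 in all replicates, and that of the wider list 0.0341. Above 0 there, against a mean below 0 in the deposited ratios, were CDC25B (0.0114), NEK2 (0.0014), UBE2C (0.0879), PTTG1 (0.0594), NDC80 (0.0767), NUF2 (0.142), SPC24 (0.0204), SPC25 (0.0398), ZWINT (0.0837), AURKB (0.2468), BIRC5 (0.1092), KIF2C (0.2099), KIF18A (0.000806), KIF23 (0.0746), ECT2 (0.0152) and NCAPG (0.1163). The cause was not tested.

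Calls over all probes numbered 46 on the slide with FSH in Cy5, 2 on the slide with FSH in Cy3, 595 with the replicate block and 427 with the block and a dye term, of which 7 and 6 were among the 49 genes. They numbered 0 to 40 with a replicate left out, the 40 without replicate 3, and 77 without replicates 3 and 4, with none among the 49 in these. The cause was not tested. The arrays of a pair share their RNA, so the block fit has more values than pools.

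On the Cy5 slide alone the sign turned for PLK1 (-0.3401), RACGAP1 (-0.0888), ZWINT (0.0893), KIF2C (0.000178) and ANLN (0.0406), and on the Cy3 slide for WEE1 (-0.0517), SMC2 (-0.065) and SMC4 (-0.1093). With scanner loess, and with separate channels and no replicate block, it turned for WEE1 (-0.0105), NEK2 (0.00461), ZWINT (0.000992) and SMC2 (-0.034), and without background subtraction for WEE1 (-0.0356), SMC2 (-0.0503) and SMC4 (-0.00606). Without replicates 3 and 4 it turned for CDC25B (0.163), CDC25C (0.0971), PLK4 (-0.3621), ANLN (0.0941) and NCAPG (0.00873). With a replicate left out, means crossed 0 for WEE1 (-0.0635 to 0.0705), PLK1 (-0.1088 to 0.0736), PLK4 (-0.1079 to 0.2263), MAD2L1 (-0.00237 to 0.409), UBE2C (-0.4094 to 0.0477), SPC25 (-0.2667 to 0.0498), AURKB (-0.1688 to 0.099), KIF2C (-0.1838 to 0.1468), ANLN (-0.0916 to 0.0565), SMC2 (-0.038 to 0.0786) and SMC4 (-0.0525 to 0.0834). The planned promoter motif description was not run.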
